A study of Mus musculus with 6 samples.

Results

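The genes described here mostly encode the core proteins of the spliceosomal small nuclear ribonucleoproteins (snRNPs) and their closest partners. They were picked by a rule on gene symbols, which took in the Sm proteins and snRNP-specific proteins (*Snrp* and *Snrnp* genes), the SF3A and SF3B subunits, the numbered *Prpf* and *Lsm* genes, and the U2AF genes, leaving out *Snrpn* and symbols that contain -ps. This gave 57 of the 55364 genes listed, and all 57 passed the filter on low levels that left 17353 genes to test. They were sorted by snRNP into 10 classes. A class of 6 *Lsm* genes, *Lsm12* among them, covers the U7 snRNP and cytoplasmic LSm proteins, which lie outside the spliceosome. The processed pseudogene *Snrpert* was kept out of these classes, but it is counted in the totals, medians and shares of all 57.

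The spliceosome removes introns from pre-mRNA. U1 snRNP pairs with the 5′ splice site, U2AF and U2 snRNP recognise the 3′ splice site and the branch point, and the tri-snRNP of U4, U6 and U5 then joins and is rearranged into the catalytic centre. Sm proteins form a ring around most spliceosomal snRNAs, whereas LSm2 to LSm8 form the corresponding ring on U6. In the preimplantation embryo this machinery first comes with the egg and is then made anew from the embryonic genome.

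The study injected an siRNA against *Yy1*, the gene of a zinc finger transcription factor, into mouse zygotes and sequenced total RNA of the resulting morulae, to ask how the transcriptome responds at that stage. Zygotes came from in vitro fertilization of oocytes of superovulated BDF1 females (8 to 12 weeks old) with sperm of BDF1 males (10 to 12 weeks old), BDF1 being a C57BL/6N by DBA/2 hybrid. The siRNA, at 10 µM, entered the cytoplasm at 2 to 3 h post insemination (hpi), and embryos were cultured in KSOM medium until morulae were collected at 64 hpi. The control KD group had 3 libraries and the *Yy1* KD group had 3, each from 10 pooled embryos, so single embryos and their sex were not resolved, and what the control siRNA targets is not given in the sources used here. Nothing in the labels says that the pools were made on different days, so the p-values below measure the spread between these pools.

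Values are TPM, the transcripts of a gene in every 1000000 of its library, which are scaled by gene length and by library. *Yy1* (chr12:108792973-108820148, plus strand, GRCm38) was at 96.0, 100.2 and 89.8 TPM across the control KD pools and at 8.73, 8.90 and 8.32 TPM across the *Yy1* KD pools. The remaining *Yy1* mRNA was thus 9.07% of the control level, with a log2 fold change of -3.32 (SE 0.09, limma adjusted p = 6.71e-05). The libraries held 11793509 to 24417789 read pairs on genes, recovered from TPM and exon length. All 10 embryo markers were present in each group, with summed levels of 2236 to 2530 TPM in the controls and 1896 to 2206 TPM after *Yy1* KD. One of them, *Tfap2c*, was called lower. Markers of cumulus and granulosa cells summed to 0.610 to 1.06 TPM in the controls and 0.782 to 2.42 TPM after *Yy1* KD, with *Cyp19a1*, *Has2* and *Ptx3* at 0, and oocyte markers summed to 43.8 to 57.1 and 46.8 to 57.9 TPM. In pooled embryos, fewer cells of a type and less RNA per cell cannot be told apart.

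The snRNP genes were among the more abundant mRNAs of the morula. Their median level in control KD was 67.9 TPM, against 8.75 TPM over all genes tested, and 47 of 57 (82.5%) were above 20 TPM, against 33.5% of all genes tested. The range ran from 2.72 TPM for *Lsm11*, a subunit of the U7 snRNP that processes replication-dependent histone mRNA, to 307 TPM for *Lsm12*. Behind these levels stood 18 to 24274 read pairs per gene and library, with medians of 1017 to 2076 pairs in the 6 libraries. Their higher counts went with a smaller error: the median standard error of the log2 difference was 0.096 for these genes and 0.208 for all genes tested.

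**Figure D1:**
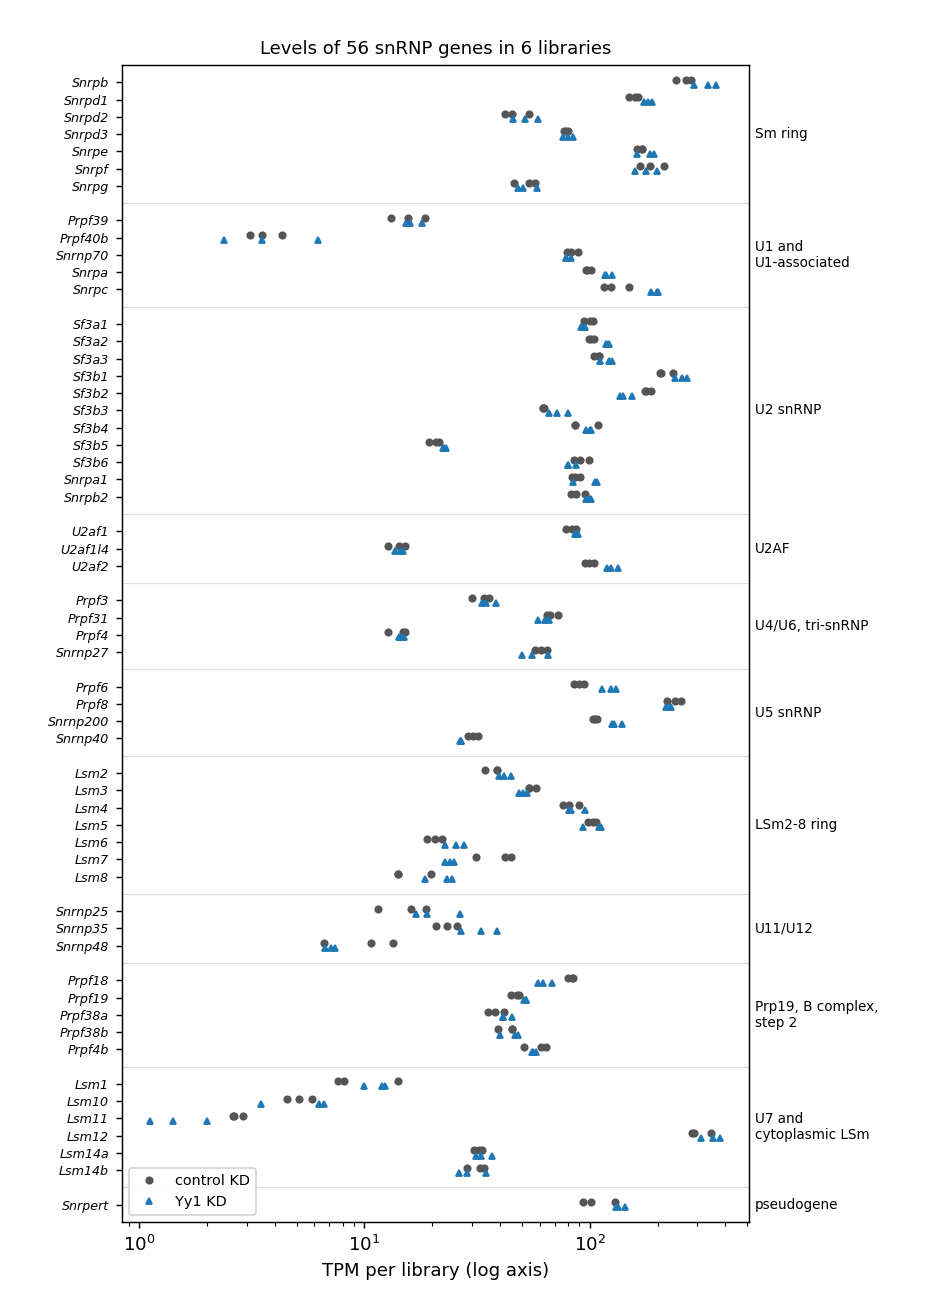
Level of 56 of the snRNP genes in each library, in TPM on a log axis, grouped by snRNP, with 1 point per library for control KD and *Yy1* KD. The points of both groups lie close together for most genes, and levels run from 1.12 TPM (*Lsm11* in a *Yy1* KD library) to 379.7 TPM (*Lsm12*).

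A gene was called when the adjusted p of limma (on log2(TPM + 1), Benjamini-Hochberg over the 17353 genes) was under 0.05. By this test 4 of the 57 snRNP genes (7.02%) differed between the groups, against 6.11% of all genes tested, a share near the background. *Lsm7* and *Prpf18* were lower in *Yy1* KD (2 genes, 3.51%, against 4.20% of all genes), and *Snrpc* and *Prpf6* were higher (2 genes, 3.51%, against 1.92%). A further 6 genes (10.5%) had an adjusted p between 0.05 and 0.1, against 5.85% of all genes tested, and 19 (33.3%) had an unadjusted p under 0.05, against 23.8%. Each of the 4 calls lost significance under some of the other settings tried, as given beside each gene. An alternative fit of limma-voom to recovered read pairs called 4 of 56 genes lower (7.14%), against 6.98% of all genes in that fit, and 8 higher (14.3%), against 5.13%. It called the same 4 genes and added *Sf3b2* and *Lsm11* as lower and *Snrnp200*, *Sf3b1*, *Snrpb*, *Lsm8*, *U2af2* and *Snrpa* as higher.

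The sizes of the differences were small. The log2 fold changes ran from -0.68 (*Lsm7*) to 0.59 (*Snrpc*), with a median of 0.087 over the 57 genes, against -0.025 over all genes tested, and 41 were positive and 16 negative. The median over these genes, taken in each library relative to the control mean, was 0.001, -0.022 and 0.013 in control KD and 0.135, 0.107 and 0.078 in *Yy1* KD. Each *Yy1* KD library was thus above each control KD library. The summed level of all 57 genes was 4554, 4539 and 4449 TPM in the controls and 4981, 4924 and 4842 TPM after *Yy1* KD, again without overlap. The summed embryo markers were lower without overlap in the same libraries, and their part in this difference was not tested. Under the other settings tried the median over the snRNP genes stayed above that over all genes, by 0.081 to 0.163.

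In 19 of 57 genes (33.3%) every *Yy1* KD library was above every control KD library, against 12.9% of all genes tested. In 6 (10.5%) every *Yy1* KD library was below every control KD library, against 17.2% of all genes. After scaling by median ratios in place of the deposited TPM scale, the counts were 17 and 5. The shares over all genes were not computed on that scale, so these counts have no background beside them. The same count among genes of comparable level, with a mean above 20 TPM, gave 19 of 47 snRNP genes higher (40.4%) against 17.0%, and 5 lower (10.6%) against 22.0%. Calls by limma at that level were 2 of 47 in each direction (4.26%), against 3.55% higher and 6.85% lower. The median log2 fold change at that level was 0.105 for the snRNP genes and -0.025 for all genes. With 3 libraries a group, an exact permutation test on 1 gene cannot go below a two-sided p of 0.1, which every gene without overlap reached.

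**Figure D2:**
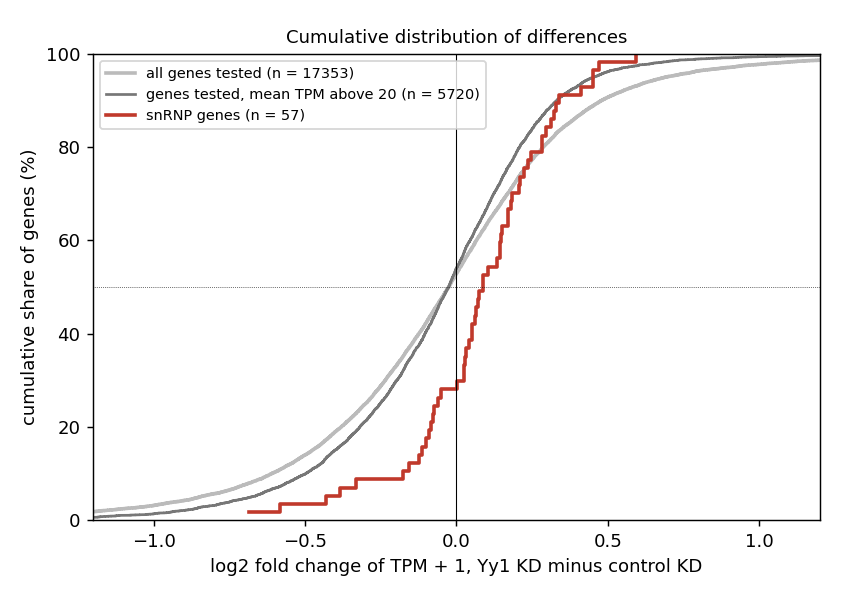
Cumulative share of genes (percent) by log2 fold change of TPM + 1, *Yy1* KD minus control KD, for the 57 snRNP genes, for all 17353 genes tested and for the tested genes with a mean above 20 TPM. The curve of the snRNP genes is steeper and crosses its middle at 0.087, to the right of the curve of all genes, which crosses at -0.025.

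*Lsm7* encodes a subunit of the LSm rings, which it shares between the U6 ring in the nucleus and the ring that starts mRNA decay in the cytoplasm. It lies at chr10:80852821-80855209 on the minus strand (GRCm38) and was at 31.1, 42.2 and 44.9 TPM in the controls and at 22.8, 24.0 and 24.96 TPM after *Yy1* KD. The control libraries varied more than the *Yy1* KD libraries, and the groups did not overlap. The means were 39.4 ± 7.30 and 23.9 ± 1.09 TPM (SD, n = 3), a log2 fold change of -0.68 (SE 0.15, limma adjusted p = 0.0466). The call rested on 198 to 698 read pairs a library. It was kept in 1 of the 6 fits that left out a library, the one without control KD replicate 1 (adjusted p = 0.0478), and the adjusted p was up to 0.137 without control KD replicate 3. Median-ratio scaling gave an adjusted p of 0.0554 and quantile normalization 0.0695.

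*Lsm7* is the called gene whose RefSeq promoter window held the motif of YY1, and so its window is shown in full. The window runs from 250 bases before to 50 bases after the RefSeq start (chr10:80855160-80855459, minus strand, GRCm38.p6), with 70.3% G or C and 40 CG dinucleotides. Capitals mark the match to the motif searched, GCCATNTT or its reverse complement AANATGGC, which here takes in the annotated start codon ATG.
Lsm7: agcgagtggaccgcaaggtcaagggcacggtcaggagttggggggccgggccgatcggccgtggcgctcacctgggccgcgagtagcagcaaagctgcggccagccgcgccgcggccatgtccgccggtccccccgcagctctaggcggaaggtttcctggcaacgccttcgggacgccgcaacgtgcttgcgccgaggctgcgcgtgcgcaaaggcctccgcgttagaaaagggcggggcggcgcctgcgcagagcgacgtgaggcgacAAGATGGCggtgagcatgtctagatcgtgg

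*Prpf18* encodes a splicing factor of the second catalytic step, when the exons are joined. The gene (chr2:4622058-4652113, minus strand) was at 80.0, 84.1 and 83.0 TPM in the controls and at 68.0, 61.9 and 59.0 TPM after *Yy1* KD. All 3 control values lay within a narrow band above the *Yy1* KD values. The means were 82.4 ± 2.12 and 63.0 ± 4.57 TPM (SD, n = 3), a log2 fold change of -0.38 (SE 0.08, limma adjusted p = 0.0439). This call was lost in each of the 6 fits without 1 library, with adjusted p-values from 0.0554 (without *Yy1* KD replicate 1) to 0.133 (without control KD replicate 3). It was also lost with median-ratio scaling (adjusted p = 0.0706) and quantile normalization (0.0779).

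*Snrpc* encodes U1-C, the U1 protein that steadies the pairing of U1 snRNA with the 5′ splice site. The gene (chr17:27838150-27851968, plus strand) was at 149.0, 124.5 and 116.1 TPM in the controls and at 200.9, 186.6 and 199.3 TPM after *Yy1* KD. The lowest *Yy1* KD library was well above the highest control. The means were 129.8 ± 17.1 and 195.6 ± 7.85 TPM (SD, n = 3), a log2 fold change of 0.59 (SE 0.10, limma adjusted p = 0.0283), the highest of the 57. Of the 6 fits without 1 library, the one without control KD replicate 1 kept the call (adjusted p = 0.0478), and the others reached up to 0.0890, without control KD replicate 3. It held under both other scalings and was lost without the filter on low levels (adjusted p = 0.0671) and without a variance trend (0.0753).

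*Prpf6* encodes the U5 protein that bridges U5 snRNP and the U4/U6 pair in the tri-snRNP. The gene (chr2:181591868-181655660, plus strand) was at 94.6, 89.7 and 84.9 TPM in the controls and at 131.0, 124.6 and 113.4 TPM after *Yy1* KD, without overlap. The means were 89.7 ± 4.86 and 123.0 ± 8.92 TPM (SD, n = 3), a log2 fold change of 0.45 (SE 0.08, limma adjusted p = 0.0332). None of the 6 fits without 1 library kept the call, with adjusted p-values from 0.0523 (without *Yy1* KD replicate 3) to 0.111 (without control KD replicate 3). It held under both other scalings and was lost without the filter (adjusted p = 0.0697) and without a variance trend (0.0924).

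The 250 bases before the RefSeq starts of the genes that rose are shown next. They are chr17:27839837-27840086 for *Snrpc* and chr2:181601069-181601318 for *Prpf6*, both on the plus strand. Each start lies inside the span that GENCODE gives the gene, which begins upstream at 27838150 for *Snrpc* and 181591868 for *Prpf6*. The bases before these GENCODE starts are not among those shown. Neither of the stretches shown holds the motif, and so no base is in capitals. The *Prpf6* bases were 58.4% G or C and the *Snrpc* bases 48.4%.
Snrpc: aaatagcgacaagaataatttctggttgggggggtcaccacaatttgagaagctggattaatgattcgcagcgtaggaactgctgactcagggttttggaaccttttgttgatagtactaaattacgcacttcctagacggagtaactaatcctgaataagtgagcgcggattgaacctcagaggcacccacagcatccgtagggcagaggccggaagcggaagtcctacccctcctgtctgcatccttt
Prpf6: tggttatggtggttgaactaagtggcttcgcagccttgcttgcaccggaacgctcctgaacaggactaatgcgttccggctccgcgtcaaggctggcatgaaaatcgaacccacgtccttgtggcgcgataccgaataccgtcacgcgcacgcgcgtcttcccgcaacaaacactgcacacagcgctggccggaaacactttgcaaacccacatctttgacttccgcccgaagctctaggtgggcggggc

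**Figure D3:**
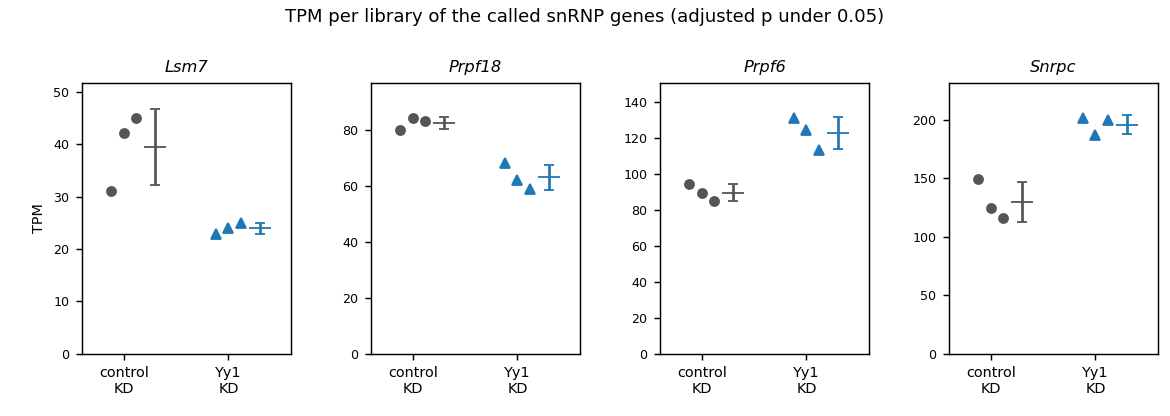
TPM per library of the 4 called snRNP genes, with 1 point per library and a dash at each group mean with an error bar of 1 SD (n = 3 libraries a group). In *Lsm7* and *Prpf18* all *Yy1* KD points are below the control KD points, and in *Snrpc* and *Prpf6* all are above, as with means of 129.8 and 195.6 TPM for *Snrpc*.

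Of the U1 genes apart from *Snrpc*, none was called. *Snrpa*, encoding U1-A, which binds a stem loop of U1 snRNA, was at 98.5 ± 2.37 TPM in the controls and 120.1 ± 4.62 TPM after *Yy1* KD (log2 fold change 0.28, limma adjusted p = 0.0589), without overlap. The exons of *Snrpa* overlap another annotated gene. *Snrnp70*, encoding U1-70K, which binds another stem loop, was at 83.5 ± 5.12 and 79.9 ± 2.50 TPM, and its groups overlapped. *Prpf40b* was at 3.65 ± 0.622 and 4.03 ± 1.96 TPM, too variable to tell a difference. The summed level of the 6 genes of this class was 430.0, 392.2 and 401 TPM in the controls and 527, 492 and 512 TPM after *Yy1* KD, so the groups did not overlap. This sum includes the called *Snrpc*, with means of 129.8 and 195.6 TPM.

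In the U2 class of 11 genes, none was called and 6 were without overlap and higher in *Yy1* KD (*Sf3a2*, *Sf3a3*, *Sf3b1*, *Sf3b3*, *Sf3b5* and *Snrpb2*). Over all genes tested, 12.9% were without overlap and higher and 17.2% without overlap and lower. Among genes with a mean above 20 TPM these shares were 17.0% and 22.0%. The most abundant was *Sf3b1*, whose product clamps the branch point helix, at 215 ± 16.6 TPM in the controls and 255 ± 16.6 TPM after *Yy1* KD (log2 fold change 0.25, limma adjusted p = 0.142). *Sf3b2*, a subunit of the same SF3B complex, went the other way, at 176, 177 and 187 TPM in the controls and 153, 136 and 140.4 TPM after *Yy1* KD. Its difference of -0.33 (SE 0.07) fell just short of the threshold (limma adjusted p = 0.0504). The exons of *Sf3b2* overlap another annotated gene, and those of *Sf3a2*, *Sf3b3*, *Sf3b4* and *Snrpa1* in this class also overlap other genes. The interval of *Sf3b1* was 0.04 to 0.45 and that of *Sf3b2* -0.51 to -0.15 on the log2 scale (95%). Both values come from the same 6 libraries, and the difference between these subunits was not tested. Summed over the class, the levels were 1152, 1157 and 1136 TPM in the controls and 1214, 1208 and 1201 TPM after *Yy1* KD, without overlap.

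For U2AF, the large subunit gene *U2af2*, which reads the polypyrimidine tract, was at 99.6, 95.6 and 104.6 TPM in the controls and 133, 125 and 119.8 TPM after *Yy1* KD. This difference of 0.33 (SE 0.07) had a limma adjusted p of 0.0528. The small subunit gene *U2af1*, which reads the AG at the 3′ splice site, was at 82.8 ± 4.17 and 87.2 ± 1.16 TPM with overlapping groups. The minor paralog *U2af1l4* was at 14.0 ± 1.21 and 14.3 ± 0.575 TPM.

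Of the 4 U5 genes, *Prpf8*, the scaffold of the catalytic centre, was the most abundant, at 238 ± 16.4 TPM in the controls and 225 ± 5.59 TPM after *Yy1* KD, with overlap. *Snrnp200*, encoding the Brr2 helicase that unwinds U4 from U6, was at 105, 103 and 107 TPM in the controls and 139.7, 128 and 125 TPM after *Yy1* KD (log2 fold change 0.31, limma adjusted p = 0.0544). *Snrnp40*, a further U5 subunit, was at 30.4 ± 1.53 and 26.7 ± 0.205 TPM, without overlap and lower (adjusted p = 0.274). The 4 genes summed to 463 ± 17.9 TPM in the controls and 506 ± 12.9 TPM after *Yy1* KD, without overlap on the deposited scale and with overlap after median-ratio scaling. This sum includes the called *Prpf6*, with means of 89.7 and 123.0 TPM. *Prpf6* and *Snrnp200* had higher means after *Yy1* KD, and *Prpf8* and *Snrnp40* lower ones, so the sum does not describe each gene of the class.

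The proteins of U4/U6 and of the tri-snRNP (*Prpf3*, *Prpf4*, *Prpf31* and *Snrnp27*) were not called. All 4 overlapped between the groups, with log2 fold changes from -0.11 (*Prpf31*) to 0.09 (*Prpf3*), and their summed level was 176 ± 7.40 TPM in the controls and 169.7 ± 8.47 TPM after *Yy1* KD.

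None of the 7 Sm ring genes was called, and their log2 fold changes ran from -0.08 (*Snrpf*) to 0.32 (*Snrpb*). *Snrpb*, encoding SmB, was the highest of them at 266, 281 and 241 TPM in the controls and 363, 289 and 336 TPM after *Yy1* KD (limma adjusted p = 0.126). *Snrpd1* was at 158 ± 6.92 and 182 ± 7.38 TPM (adjusted p = 0.135), and these were the pair of Sm genes without overlap. Both were higher without overlap, a pattern shown by 12.9% of all genes tested. The subunits of the same ring stood at unlike mRNA levels, down to 47.1 ± 6.19 TPM for *Snrpd2* and 52.2 ± 5.61 TPM for *Snrpg* in control KD. Summed, the ring was at 954 ± 37.8 TPM in the controls and 1055 ± 53.8 TPM after *Yy1* KD.

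Within the U6 ring of LSm2 to LSm8, *Lsm7* was the gene that was called. *Lsm8*, the subunit that marks the nuclear ring, was at 19.8, 14.1 and 14.1 TPM in the controls and 24.6, 18.5 and 23.3 TPM after *Yy1* KD, a log2 difference of 0.45 (SE 0.18, limma adjusted p = 0.177) with overlapping groups. *Lsm6* was at 20.6 ± 1.62 and 25.3 ± 2.38 TPM (limma adjusted p = 0.192) and *Lsm2* at 37.3 ± 2.55 and 42.0 ± 2.45 TPM (0.320), both higher without overlap. *Lsm3*, at 55.1 ± 2.30 and 50.5 ± 2.17 TPM (adjusted p = 0.396), was lower without overlap, as was *Lsm7*. Over all genes tested, 12.9% were without overlap and higher and 17.2% without overlap and lower. *Lsm5*, the most abundant of the ring, was at 97.8 to 106.6 TPM in the controls and 93.4 to 112 TPM after *Yy1* KD. The ring summed to 353 ± 3.31 TPM in the controls and 355 ± 8.79 TPM after *Yy1* KD.

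*Lsm1*, which takes the place of *Lsm8* in the cytoplasmic ring, was at 9.94 ± 3.60 and 11.4 ± 1.31 TPM with overlapping groups. The U7 subunit *Lsm11* was at 2.60, 2.64 and 2.91 TPM in the controls and 1.12, 1.41 and 2.002 TPM after *Yy1* KD. The groups did not overlap, the difference was -0.58 (SE 0.22, limma adjusted p = 0.171), and 50 to 176 read pairs a library stood behind it. In an alternative fit of limma-voom to the recovered read pairs *Lsm11* was called (log2 fold change -0.89, adjusted p = 0.0465). Its U7 partner *Lsm10* was at 5.17 ± 0.655 and 5.47 ± 1.74 TPM, with as few as 18 pairs in a library, and no difference was detectable at this depth. *Lsm14a* and *Lsm14b*, of cytoplasmic granules that store or silence mRNA, were at 32.1 ± 1.23 and 33.8 ± 2.92 TPM and at 31.7 ± 2.72 and 29.9 ± 4.28 TPM.

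U11 and U12 are snRNPs of the minor spliceosome, which removes rare U12-type introns. The genes of their particular proteins were at lower levels than most snRNP genes and varied more. Their median control level was 15.5 TPM, against 67.9 TPM over the 57 genes and 8.75 TPM over all genes tested. The median standard errors were 0.227, 0.096 and 0.208 in the same order. *Snrnp35* was at 25.8, 23.2 and 20.7 TPM in the controls and 32.8, 38.6 and 27.0 TPM after *Yy1* KD, without overlap (log2 fold change 0.47, SE 0.15, limma adjusted p = 0.123). *Snrnp48* had a difference of the opposite sign, -0.43 (SE 0.24), and *Snrnp25* one of 0.41 (SE 0.23), both with overlap. In the class of Prp19, B complex and second-step factors, *Prpf19*, a ubiquitin ligase of the active spliceosome, was at 46.8 ± 2.03 and 51.9 ± 0.527 TPM, and *Prpf18* alone was called. The pseudogene *Snrpert* was at 108 ± 19.2 and 136 ± 6.58 TPM (adjusted p = 0.167). Its transcript of 279 nt shares a stretch of 177 nt with *Snrpe*. Multi-mapped pairs were not asked for, so pairs that fit both loci may be missing. Others may have been assigned to the wrong locus, and both levels are uncertain.

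**Figure D4:**
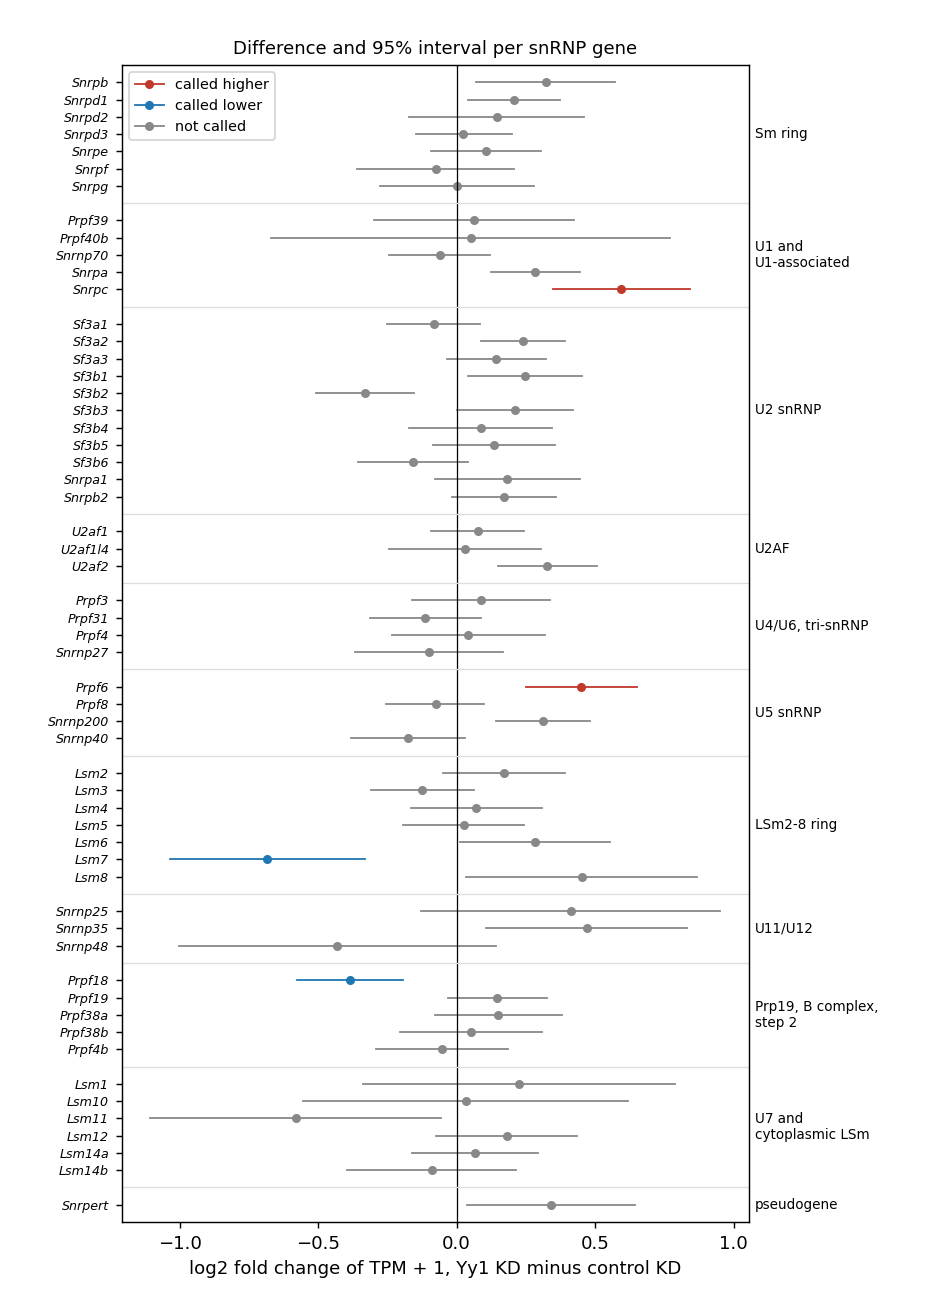
Log2 fold change of TPM + 1 (*Yy1* KD minus control KD) of 56 snRNP genes with its 95% interval from limma, grouped by snRNP, coloured where called at an adjusted p under 0.05. Most points sit between -0.2 and 0.35 and most intervals cross 0, with *Lsm7* at -0.68 and *Snrpc* at 0.59 at the ends.

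The motif of YY1 was searched in the RefSeq promoter windows of 300 bases (250 before to 50 after the start) on both strands, which the table held for 45 of the 57 genes and not for *Prpf18*. GCCATNTT or AANATGGC occurred in 6 of 45 (13.3%), against 10.4% of the tested genes with a window and 6.05% of all windows. Among tested genes, 27.7% of those called lower held it, 14.1% of those called higher and 9.35% of those not called. The shorter core CCATNTT, whose matches include those of the longer motif, occurred in 10 of 45 (22.2%), against 18.1% of the tested genes with a window and 16.1% of all windows. A gene was counted if any of its windows held the motif, whereas the shares of all windows count single windows. The latter are therefore not a like comparison.

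The 6 matches are shown with their surroundings, 30 bases each in the direction of the gene, to show where each lies. Capitals mark the match.
Lsm14b (chr2:180024862-180024891, plus strand): cctgcggcgcgGCCATATTtaaagggagcc
Prpf38b (chr3:108911712-108911741, minus strand): ccgctggccccGCCATCTTgttcccagggg
Sf3a1 (chr11:4160373-4160402, plus strand): tctgggtcgccGCCATCTTgtcattgagtt
Lsm3 (chr6:91516044-91516073, plus strand): gcagcgtttgaAACATGGCggacgacgtag
U2af1l4 (chr7:30563342-30563371, plus strand): gtgttcgggtaAAAATGGCtgaatatttag
Lsm7 (chr10:80855171-80855200, minus strand): cgtgaggcgacAAGATGGCggtgagcatgt

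In *Lsm3*, *U2af1l4* and *Lsm7* the match covered the annotated start codon, and these matches begin at 20, 13 and 20 bases past a RefSeq start. A second RefSeq start of *Lsm7* lies downstream, so that the same match is also 33 bases before it. In *Lsm14b* the match lay 114 bases before the start, in *Prpf38b* it began 1 base before it, and in *Sf3a1* 30 bases after it. Of these 6 genes, *Lsm7* was called and the other 5 had log2 fold changes from -0.12 (*Lsm3*) to 0.05 (*Prpf38b*). A further 4 genes held the core alone, with log2 fold changes of -0.58 (*Lsm11*), 0.14 (*Sf3a3*), 0.03 (*Snrpd3*) and 0.05 (*Prpf40b*), none of them called. In *Lsm11* and *Sf3a3* it covered the start codon.

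Lists of related genes were read beside the snRNP proteins. Of 63 other splicing genes, 4 (6.35%, against 4.20% of all genes tested) were called lower in *Yy1* KD and 3 (4.76%, against 1.92%) higher. The median log2 fold change was 0.131 over the list and -0.025 over all genes tested. Without overlap between the groups, 21 of the 63 were higher and 9 lower, against 12.9% and 17.2% of all genes tested. An excess of genes higher without overlap was thus not particular to the snRNP genes. The lower ones were *Dhx35*, a DEAH-box RNA helicase (-1.77, limma adjusted p = 0.0126), *Cwf19l2*, of late spliceosomes (-1.05, 0.0298), *Zmat2*, of the precatalytic spliceosome (-0.65, 0.0301), and *Bud13*, of the RES complex (-0.64, 0.0301). The higher ones were *Puf60*, a partner of U2AF at the polypyrimidine tract (0.44, limma adjusted p = 0.0297), *Slu7*, a second-step factor like *Prpf18* (0.43, 0.0339), and *Rbm22*, of the catalytic core (0.36, 0.0469). *Dhx35* moved furthest, from 9.60, 8.65 and 8.27 TPM in the controls to 1.90, 1.30 and 2.62 TPM after *Yy1* KD, and its promoter window held the motif. Of the called-lower genes of this list, *Cwf19l2* and *Bud13* also had a window, and neither held it. The call of *Dhx35* was lost without any 1 of the control libraries (limma adjusted p = 0.0518 to 0.0599) and kept without any 1 of the *Yy1* KD libraries. Of the other calls, that of *Zmat2* was lost in 4 of the 6 fits without 1 library, and each of the other 5 was lost in all 6.

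Of 47 genes measured that assemble snRNPs or process snRNA, 4 (8.51%, against 4.20% of all genes tested) were called lower and 1 (2.13%, against 1.92%, near that background) higher. Their median log2 fold change was 0.09, against -0.025. Without overlap between the groups, 12 of the 47 were higher and 9 lower, against 12.9% and 17.2% of all genes tested. *Prmt5*, the arginine methyltransferase that modifies Sm proteins before ring assembly, was at 202, 209 and 179.9 TPM in the controls and 117, 123 and 124 TPM after *Yy1* KD (log2 fold change -0.69, SE 0.08, limma adjusted p = 0.0117). *Sart3*, which re-anneals U4 to U6 when snRNPs are recycled, was at 67.4 ± 0.576 and 41.5 ± 1.44 TPM (-0.68, SE 0.07, adjusted p = 0.00959). Without 1 library the call of *Prmt5* was lost once (without control KD replicate 1, adjusted p = 0.0514) and that of *Sart3* once (without control KD replicate 3, 0.0511). Of 14 subunits measured of Integrator, which cuts nascent snRNA, 11 were not called. *Ints8* (-0.78, limma adjusted p = 0.0126) and *Ints3* (-0.40, 0.0448) were lower and *Ints14* (0.79, 0.0194) was higher. The exons of *Ints8* overlap those of *Ccne2*. Without 1 library, the call of *Ints8* was lost in 2 of the 6 fits (without control KD replicate 2 or 3), that of *Ints14* in 5 and that of *Ints3* in 6.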

How the data were processed

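RNA-seq was done on 3 control KD and 3 *Yy1* KD libraries of pooled morulae with a stranded SMART-Seq kit and paired reads, and libraries were grouped by their labels. After trimming, alignment to mm10 and removal of ribosomal reads, the authors counted pairs per gene without regard to strand, shared pairs on several genes among these, and deposited TPM per gene (the submitters' processing notes name Trim Galore 0.6.7, HISAT2 2.2.1, featureCounts 2.0.1 and bedtools). Counting without strand affects the 14 snRNP genes whose exons overlap another gene, and 42 had no such overlap. Multi-mapped pairs were not asked for, which affects genes with near copies.

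The authors used a test on read counts. TPM are not counts, so limma 3.58.1 (R 4.3.3) was fitted here to log2(TPM + 1), with a variance trend and without a replicate block, over genes at 1 TPM or more in at least 3 of the 6 libraries. Two-sided p-values were adjusted by Benjamini-Hochberg over all 17353 genes, and the pseudocount of 1 understates changes of low genes. The ± sign gives the SD. Single genes were also compared by exact permutation. Alternatives changed the pseudocount (0.1), the filter (none, or a mean of at least 5 TPM), the scaling (median ratios, quantiles), the variance trend, the replicate block, the overlapping genes and each library in turn, and fitted limma-voom to recovered read pairs scaled by median ratios. Coordinates came from GENCODE vM21 (GRCm38), which held 98.1% of the identifiers and 56 of the 57 snRNP genes, 55 of them protein coding. Pairs were taken from TPM and exon length, with 80.6 to 81.6% of low values whole within 0.01 of a pair, which gives depth in proportion and counting precision only. Promoter windows are RefSeq's (GRCm38.p6). Tables and plots were made in Python 3.11.15 (matplotlib 3.10.9, numpy 2.4.6, pandas 2.3.3, scipy 1.17.1).

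The snRNP genes and the lists were chosen with earlier results of these data known, so their counts and medians are descriptions. For 1 snRNP gene no separate result is reported here. Named are *Yy1*, the snRNP genes (every called one with each library's value) and the called genes of each list, with the tested snRNA genes open to naming. *Tfap2c*, the markers at 0, *Snrpn* and *Ccne2* were named after their values were seen.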

Additional observations from a re-analysis of the deposited data

How the results depend on the processing

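Calls among the snRNP genes depended on the settings. Against 2 lower and 2 higher, no gene was called in either direction without the filter on low levels (0 and 0), without a variance trend (0 and 0) or with a replicate block (0 and 0). Over all genes these settings called 270 lower and 77 higher of 35852, 382 and 132 of 17353, and 218 and 69 of 17353. The main fit called 728 and 333 of 17353. Median-ratio scaling gave 0 lower and quantile normalization 0 lower and 5 higher, a mean of at least 5 TPM gave 5 higher, and limma-voom on read pairs gave 4 lower and 8 higher. Over all 17353 genes, median ratios called 651 lower and 340 higher, and quantiles called 548 and 388. The mean of at least 5 TPM left 10675 genes and called 841 and 378, and limma-voom called 1181 and 869 of 16931. Fits without 1 library gave 0 to 1 lower and 0 to 1 higher, against 53 to 326 lower and 22 to 92 higher over all 17353 genes. The median log2 fold change of 0.087 was 0.113 with median ratios, 0.138 with quantiles, 0.123 with limma-voom, 0.12 without overlapping genes and 0.053 after rescaling TPM to genes of 200 nt or more, a setting chosen after seeing the data, and 0.077 to 0.119 without 1 library.

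The other splicing genes (4 lower, 3 higher) fell to 1 and 0 without the filter, 2 and 0 without a trend, 1 and 0 with the replicate block and 0 to 2 and 0 without 1 library, and rose to 5 higher at a mean of 5 TPM and 12 higher with limma-voom. The biogenesis genes (4 lower, 1 higher) gave 2 and 0 with the block, 3 higher with limma-voom, and 1 to 3 lower and 0 to 1 higher without 1 library. For both lists, the calls over all genes under each setting are those given above. They numbered 378 higher of 10675 at a mean of 5 TPM and 869 higher of 16931 (5.13%) with limma-voom. Replicate numbers were not taken to pair the samples, since the study's methods name no block. Deviations of same-numbered libraries from their group means correlated at -0.0039, 0.0319 and 0.0747. Deviations from a mean of 3 libraries are tied to each other, so these values cannot settle the pairing. Control KD replicates 2 and 3 correlated best with their own number and replicate 1 with *Yy1* KD replicate 2 (0.0411). The block lowered the calls over all genes from 728 lower and 333 higher to 218 and 69, and those without control KD replicate 3 numbered 53 and 22. Over all genes limma-voom called 1181 lower and 869 higher. The causes were not tested.

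Signs turned for genes near 0: *Lsm5* (-0.002), *Snrpd3* (-0.002) and *Snrpg* (-0.025) with the rescaling to 200 nt or more, and *Prpf4b* with quantiles (0.017). Without 1 library, *Lsm10* ranged from -0.107 to 0.279, *Lsm4* from -0.004 to 0.132, *Lsm5* from -0.022 to 0.106, *Prpf38b* from -0.015 to 0.133, *Prpf39* from -0.056 to 0.183 and *Prpf4* from -0.031 to 0.089. Likewise *Prpf40b* ranged from -0.242 to 0.302, *Prpf4b* from -0.146 to 0.01, *Snrpd3* from -0.013 to 0.061, *Snrpf* from -0.157 to 0.016, *Snrpg* from -0.084 to 0.067 and *U2af1l4* from -0.034 to 0.082. *Yy1* was called under every alternative, at -3.45 to -3.26.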

Other observations

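The RNA partners of these proteins were also listed. Of 1383 snRNA genes, 240 passed the filter, of 54 to 191 nt, and 6 (2.50%, against 4.20% of all genes tested) were called lower and 5 (2.08%, against 1.92%) higher by limma at an adjusted p under 0.05. Their summed level was 8341 to 10417 TPM in the controls and 8047 to 9766 TPM after *Yy1* KD, with overlap. *Rnu2-10*, annotated as a U2 snRNA gene, was among those that rose, at 6.90 ± 1.21 TPM in the controls and 15.9 ± 3.56 TPM after *Yy1* KD (log2 fold change 1.09, SE 0.21, limma adjusted p = 0.0339), and the call was lost with limma-voom on read pairs and in 5 of the 6 fits without 1 library. *Rnu2-10* is 191 nt long, and a TPM value of so short a gene stands for fewer read pairs than the same value of a longer gene. The read pairs behind it are not given here. *Rnu5g*, a U5 gene, was at 61.5 ± 16.3 and 33.8 ± 11.5 TPM without overlap (limma adjusted p = 0.137). The snRNAs of the minor spliceosome, *Rnu11* and *Rnu12*, were at 121 ± 9.15 and 136 ± 41.8 TPM and at 122 ± 11.4 and 132 ± 45.0 TPM, with larger spread in *Yy1* KD. These snRNA genes are short and many have near copies. Pairs that fit several loci may be missing and others may have been assigned to the wrong locus, so the levels are uncertain.

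*Snrpn*, the imprinted relative of *Snrpb* that was left out above, was at 154.6 ± 6.20 TPM in the controls and 141 ± 12.5 TPM after *Yy1* KD (log2 fold change -0.13, limma adjusted p = 0.404). The longest stretch that its transcripts share with those of *Snrpb* was 32 nt.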
